A study of Homo sapiens with 6 samples.

Results

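The 10 genes described here encode tenascins, thrombospondins, SPARC proteins, osteopontin and periostin, and they were taken by symbol from a deposited table of read counts for 62703 Ensembl genes. Each of the 10 symbols (TNC, TNXB, THBS1, THBS2, THBS3, THBS4, SPARC, SPARCL1, SPP1 and POSTN) matched 1 row of the table. The cells were A549, a long-established line from a human lung adenocarcinoma, and they grew in an S-AlgLung hydrogel (3 libraries) or an AlgLung hydrogel (3 libraries). The same serum-supplemented DMEM/F12 culture conditions are given for all 6 libraries, and no genotype, drug or time in the gel is given for either hydrogel. The labels do not say what the S stands for, and the series title concerns sulfation of the extracellular matrix. The comparison asks how mRNA levels differ between cells in the 2 gels. Only 1 cell line was used, so mRNAs that fibroblasts or endothelial cells would add are not part of the model. Matrix proteins present in the gels or the serum were not measured. Whether the 3 replicates of a gel came from separate cultures is not stated, so p-values reflect spread among libraries that may be only technical.

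Matricellular proteins are secreted into the matrix but signal to cells more than they carry load. Tenascins and thrombospondins are large multimodular proteins that bind integrins, proteoglycans and collagens and can loosen focal adhesions. Thrombospondin 1 also activates latent TGF-beta. SPARC binds collagen and calcium, osteopontin (SPP1) is a phosphorylated integrin and CD44 ligand, and periostin is typical of activated stroma. Tenascin C and osteopontin are widely studied in invasive carcinoma.

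Total counts were 24132875 to 26495444 in S-AlgLung and 22978408 to 23682120 in AlgLung libraries. S-AlgLung replicate 3 stood apart from the other libraries: it scored 49.2 on the second principal component (28.9% of the variance), against -20.2 and -33.4 for the other 2 S-AlgLung libraries, and had 28413 genes with at least 1 count, against 25729 to 26007 in the other 5. Results are therefore given with and without it wherever it changed a call. The 10 genes of the epithelial and A549 marker list were all detected, at widely different levels. They summed to 17909 to 34073 CPM in S-AlgLung and 26774 to 35531 CPM in AlgLung. AKR1B10 was at 4788 and 4835 CPM in S-AlgLung and AlgLung, whereas EPCAM was at 3.83 and 1.95 CPM. CPM here are counts scaled to library size, with TMM factors between libraries. Of 8 markers of alveolar type II cells, which A549 is often used to model, 3 passed the low-count filter. ABCA3, a lipid transporter of lamellar bodies, was well expressed, at 247 ± 74.2 CPM in S-AlgLung and 208 ± 34.0 CPM in AlgLung (SD, n = 3 each; edgeR adjusted p = 0.761). SFTPA1 had 0 counts in both gels, NKX2-1 had 0 counts in S-AlgLung and 1 in AlgLung, and SFTPB had 5 and 0. NAPSA and SFTPD, the other 2 tested, were at 1.42 and 0.367 CPM in S-AlgLung and at 0.954 and 0.613 CPM in AlgLung and were not called (adjusted p = 0.601 and 0.527). NR1H2 on the other strand covers 33.0% of the NAPSA exon length and had 138 times its counts. Whether the counting used strand is not known here, so the level of NAPSA is uncertain.

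TNC was the only member called different between the gels, and it was higher in S-AlgLung by 3.01-fold. THBS1 lay in the other direction, with all 3 S-AlgLung libraries below all 3 AlgLung libraries, but did not pass the test. TNXB, THBS3, SPARC and SPP1 had overlapping libraries and were not called, and THBS2, THBS4, SPARCL1 and POSTN had too few reads to test. Of the 10 members, 6 passed the low-count filter, and 1 of the 6 was called higher and 0 lower by edgeR at an adjusted p under 0.05. The same rule called 5.14% of all 18544 genes tested (584 or 3.15% higher and 369 or 1.99% lower; 333 higher and 335 lower when libraries were scaled by total counts only, which moved the median log2 fold change of all genes by -0.10). No member was called lower by the DESeq2 Wald test or limma-voom either, and 3 of the 6 tested members (TNC, THBS1 and TNXB) had an unadjusted p under 0.05 in either direction, against 14.9% of all tested genes. The median log2 fold change was 0.02 over the 6 tested members and 0.03 over all tested genes. Because a member passed the filter partly through its level, these counts describe the 6 and not the family.

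The promoter windows of 3 members are shown because these members mark the ends of the results: TNC was called higher, THBS1 had the lowest fold change, and POSTN had no read in any library. Each window runs from 250 bases before to 50 after a RefSeq start site (GRCh38.p14), 5′ to 3′ on the gene's strand, and capitals mark motif matches on either strand. The TATA box was searched with the letters TATAAA, the AP-1 element with TGANTCA, the CRE with TGACGTCA, the EGR1 element with GCGNGGGCG, the GC box with GGGCGG and the TEAD element with GGAATG, and the CArG box was searched as well; a GC box may overlap an EGR1 match.
On chr9:115118108-115118407, minus strand:
TNC: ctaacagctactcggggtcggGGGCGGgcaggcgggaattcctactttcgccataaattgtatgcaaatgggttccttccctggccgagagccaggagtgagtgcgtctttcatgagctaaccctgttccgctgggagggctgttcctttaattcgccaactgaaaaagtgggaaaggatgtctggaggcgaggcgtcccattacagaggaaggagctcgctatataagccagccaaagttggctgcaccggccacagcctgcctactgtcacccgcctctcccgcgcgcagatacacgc
On chr15:39580829-39581128, plus strand:
THBS1: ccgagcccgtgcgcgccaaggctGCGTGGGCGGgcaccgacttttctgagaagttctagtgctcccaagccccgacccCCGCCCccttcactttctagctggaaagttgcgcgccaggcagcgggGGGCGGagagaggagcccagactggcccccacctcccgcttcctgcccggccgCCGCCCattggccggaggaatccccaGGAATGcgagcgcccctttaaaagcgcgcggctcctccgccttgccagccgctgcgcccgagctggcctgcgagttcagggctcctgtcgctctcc
On chr13:37598719-37599018, minus strand:
POSTN: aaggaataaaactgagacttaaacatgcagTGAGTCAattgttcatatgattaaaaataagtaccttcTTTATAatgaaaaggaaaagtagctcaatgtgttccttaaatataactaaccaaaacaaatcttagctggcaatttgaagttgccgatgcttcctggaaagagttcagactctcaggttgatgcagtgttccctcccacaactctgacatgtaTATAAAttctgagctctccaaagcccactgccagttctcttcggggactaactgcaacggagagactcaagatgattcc
The TNC window held a single match to the searched letters, a GC box starting 229 bases before the start site. Exact letters miss variants: the TNC window also holds the run tatataag, which resembles a TATA box but was not searched for. The THBS1 window was 70.0% G and C and held 4 GC boxes, an EGR1 match that overlaps the first of them (227 bases before the start site) and a TEAD match 46 bases before it. The POSTN window, at 39.0% G and C, held a TATA box 29 bases before the start site, a second one in reverse 182 bases before it, and the only AP-1 match among the 13 windows of the 10 members. Over all 35116 RefSeq windows, 45.0% held a GC box, 9.43% an EGR1 match, 14.03% a TEAD match, 11.5% a TATA box and 7.71% an AP-1 match. No member window held a CRE, which 1.85% of all windows do. These matches describe letters in a window and are not sites of binding.

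TNC, tenascin C, is a hexameric glycoprotein with little expression in most resting adult epithelium. It lies on chromosome 9 (115019575 to 115118207, GRCh38, minus strand), with 33 merged exon blocks and 9589 exon bases. Its level was 11.2, 10.5 and 14.2 CPM in S-AlgLung replicates 1, 2 and 3, against 5.25, 2.65 and 4.01 CPM in the AlgLung replicates. The lowest S-AlgLung library was above the highest AlgLung library, and AlgLung replicate 2 was the lowest of the 6. Means were 11.99 ± 1.995 CPM in S-AlgLung and 3.97 ± 1.30 CPM in AlgLung (SD, n = 3 each). The log2 fold change was 1.59 (SE 0.26, 95% interval 1.06 to 2.12, edgeR adjusted p = 0.000156), and TNC was higher in 3 of 3 S-AlgLung libraries. Among the 584 genes called higher it ranked 179 by fold change. The call held in all 15 alternatives tried, with log2 fold changes of 1.37 (without AlgLung replicate 2) to 1.79 (without AlgLung replicate 1). Without S-AlgLung replicate 3, which had the highest level, it was 1.41. Exons of TNC share 129 bases with DELEC1 on the other strand, which had 119 counts against 1190 for TNC.

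TNXB, tenascin X, is a large matrix protein of connective tissue that binds collagen fibrils and whose loss causes a form of Ehlers-Danlos syndrome. It lies on chromosome 6 (32041153 to 32115334, minus strand, 45 merged exon blocks). S-AlgLung libraries had 14.3, 8.19 and 11.8 CPM and AlgLung libraries 9.16, 7.64 and 7.57 CPM. The groups overlapped through S-AlgLung replicate 2, which lay below AlgLung replicate 1. The log2 fold change of 0.49 (SE 0.24, 95% interval 0.00 to 0.98) did not pass the test (edgeR adjusted p = 0.332), nor did it in any of the 15 alternatives (0.30 to 0.68). A near-identical partial copy, TNXA, had 1 count in each gel. How reads that match both copies were counted is not known here, so the level of TNXA, and TNXB reads in that region, are uncertain. On the same strand 71 exon bases are shared with ATF6B, which had 6.48 times the counts of TNXB, so a small part of the TNXB reads is uncertain. Set per kb of exon, TNC was 1.30, 2.12 and 2.004 times the level of TNXB in the S-AlgLung libraries and 0.951, 0.576 and 0.879 times in the AlgLung libraries. TNC was thus the more abundant tenascin in every S-AlgLung library and the less abundant in every AlgLung library on this scale. The scale counts all merged exons of a gene, and the transcripts in use were not determined. The order of the 2 tenascins within a gel therefore depends on these lengths.

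**Figure D1:**
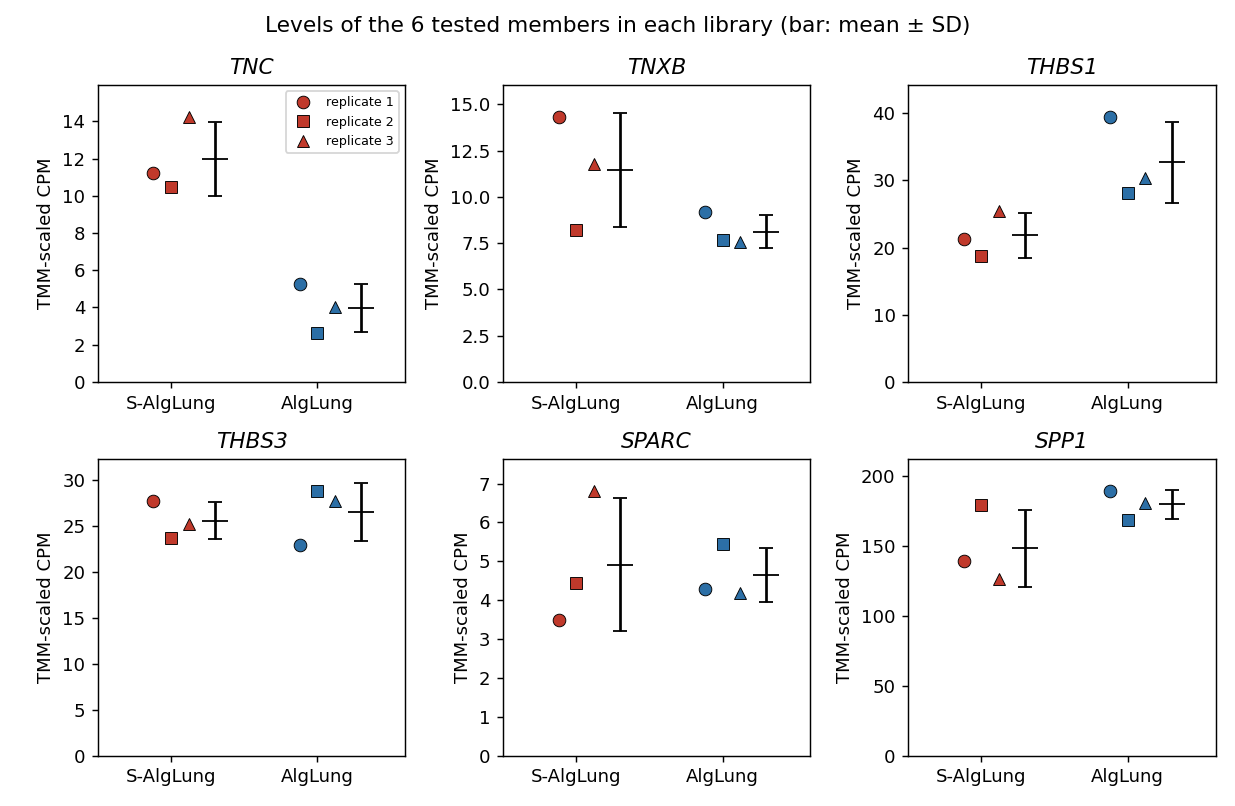
TMM-scaled CPM of the 6 tested members in each library, with S-AlgLung left of AlgLung; circles, squares and triangles are replicates 1, 2 and 3 and the bar to their right is the mean ± SD (n = 3). The 3 S-AlgLung libraries are all above the AlgLung libraries for TNC (10.5 to 14.2 against 2.65 to 5.25 CPM) and all below them for THBS1 (18.7 to 25.5 against 28.1 to 39.5 CPM), while the other 4 genes overlap.

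Among the thrombospondins, THBS1 and THBS3 were expressed and THBS2 and THBS4 were near the limit of detection. THBS1 encodes thrombospondin 1, a trimer that binds CD47 and CD36 and activates latent TGF-beta; it lies on chromosome 15 (39581079 to 39599466, plus strand, 20 merged exon blocks). It had 21.2, 18.7 and 25.5 CPM in S-AlgLung replicates 1, 2 and 3, against 39.5, 28.1 and 30.4 CPM in the AlgLung replicates. The groups did not overlap, and AlgLung replicate 1 was well above the other libraries. Means were 21.8 ± 3.42 CPM in S-AlgLung and 32.7 ± 6.003 CPM in AlgLung (SD, n = 3 each), a log2 fold change of -0.58 (SE 0.22, 95% interval -1.03 to -0.14). This did not pass after adjustment over all genes (edgeR adjusted p = 0.149). Without S-AlgLung replicate 3 it was called lower at -0.74 (adjusted p = 0.0101), and over the 15 alternatives adjusted p ran from 0.0101 to 0.475. The 3 values of one gel did not overlap those of the other in 2 of the 6 tested members, TNC and THBS1, and in 18.4% of all tested genes.

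The ratio of THBS1 to TNC within a library does not depend on scaling between libraries. Per kb of exon it was 1.98, 1.87 and 1.87 in the S-AlgLung libraries and 7.87, 11.1 and 7.92 in the AlgLung libraries. On this scale THBS1 was the more abundant of the pair in all 6 libraries. The mean ratio was 1.91 ± 0.0604 in S-AlgLung and 8.97 ± 1.85 in AlgLung (SD, n = 3 each). The ratios of the gels did not overlap, but the pair was set side by side after its values were seen and the ratio was not tested.

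THBS3, a pentameric thrombospondin best known from cartilage and bone, lies on chromosome 1 (155195588 to 155209051, minus strand, 23 merged exon blocks). It had 27.7, 23.7 and 25.2 CPM in S-AlgLung and 22.9, 28.8 and 27.6 CPM in AlgLung. The groups overlapped fully, with means of 25.5 ± 2.02 and 26.5 ± 3.15 CPM (SD, n = 3 each). The log2 fold change was -0.05 (SE 0.21, edgeR adjusted p = 0.960), and its 95% interval of -0.48 to 0.38 leaves out changes of 2-fold in either direction. THBS3-AS1 on the other strand covers 25.9% of the THBS3 exon length and had 0.732 times its counts. Whether the counting used strand is not known here, so reads of the pair may be shared and the level of THBS3 is uncertain. THBS2, an inhibitor of angiogenesis in mice, had 4, 3 and 9 counts in S-AlgLung and 3, 11 and 2 counts in AlgLung. THBS4, a matrix protein of muscle and tendon, had 5, 4 and 2 counts in S-AlgLung and 3, 5 and 1 in AlgLung. Neither gene was tested, and at 16 and 16 counts for THBS2 and 11 and 9 counts for THBS4 in S-AlgLung and AlgLung a difference was not detectable at this depth. THBS2-AS1, which covers 31.2% of the THBS2 exon length, had 2.16 times the counts of THBS2, so even these few reads may not be of THBS2.

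SPP1, osteopontin, was the most abundant member and took 60.1% to 73.2% of the summed CPM of the 10 genes in S-AlgLung libraries and 69.7% to 71.0% in AlgLung libraries. It lies on chromosome 4 (87975667 to 87983532, plus strand), a short gene listed with 3 merged exon blocks. It had 139.8, 179.7 and 126.6 CPM in S-AlgLung and 189.9, 169.0 and 180.9 CPM in AlgLung. S-AlgLung replicates 1 and 3 lay below every AlgLung library, whereas replicate 2 lay among them. The log2 fold change was -0.28 (SE 0.24, 95% interval -0.77 to 0.21, edgeR adjusted p = 0.691), and it was not called in any of the 15 alternatives (-0.44 to -0.20). The spread was wider in S-AlgLung, with a coefficient of variation of 18.6% against 5.83% in AlgLung. A gene without a symbol on the other strand, ENSG00000286618, shares 196 exon bases with SPP1 and had 0.252 times its counts.

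SPARC, a collagen-binding protein also called osteonectin, lies on chromosome 5 (151661096 to 151686975, minus strand, 12 merged exon blocks). It had 3.49, 4.43 and 6.82 CPM in S-AlgLung and 4.29, 5.44 and 4.18 CPM in AlgLung. The lowest and the highest of the 6 libraries were both in S-AlgLung, and the highest was replicate 3. The log2 fold change of 0.09 (SE 0.28, 95% interval -0.47 to 0.65, edgeR adjusted p = 0.941) has no settled sign: it was -0.25 without S-AlgLung replicate 3. SPARCL1, a related protein abundant in brain and vessel walls, had 0, 1 and 2 counts in S-AlgLung and 0, 2 and 1 in AlgLung. POSTN, periostin, had 0 counts in every library of both gels. A count of 0 allows up to 3 counts, or 0.113 to 0.124 CPM by total counts in an S-AlgLung library and 0.127 to 0.131 in an AlgLung library, counting error only.

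Levels of different genes were compared per kb of exon, counting all merged exons of a gene. The transcripts in use may be shorter, so the order below depends on these lengths. Over the 6 libraries SPP1 came first at 22.7 ± 3.50 CPM per kb, followed by THBS3 at 5.62 ± 0.523, THBS1 at 2.97 ± 0.806, SPARC at 1.03 ± 0.255, TNC at 0.832 ± 0.484 and TNXB at 0.615 ± 0.171 CPM per kb (SD, n = 6). THBS4 (0.0307), THBS2 (0.0306) and SPARCL1 (0.0117) followed, and POSTN was at 0. The ranges of neighbours did not overlap from SPP1 to THBS3, from THBS3 to THBS1, from THBS1 to SPARC and from TNXB to THBS4. SPARC, TNC and TNXB overlapped their neighbours, as did the genes below THBS4. In S-AlgLung, TNC stood at 1.25 CPM per kb, above SPARC at 1.06 and TNXB at 0.719; in AlgLung, TNC was the lowest of the 6 tested members at 0.414, below TNXB at 0.511 and SPARC at 0.999. The summed CPM of the 2 tenascins were 18.7 to 26.0 in S-AlgLung and 10.3 to 14.4 in AlgLung, while those of the 4 thrombospondins were 42.7 to 51.1 and 57.7 to 62.6.

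**Figure D2:**
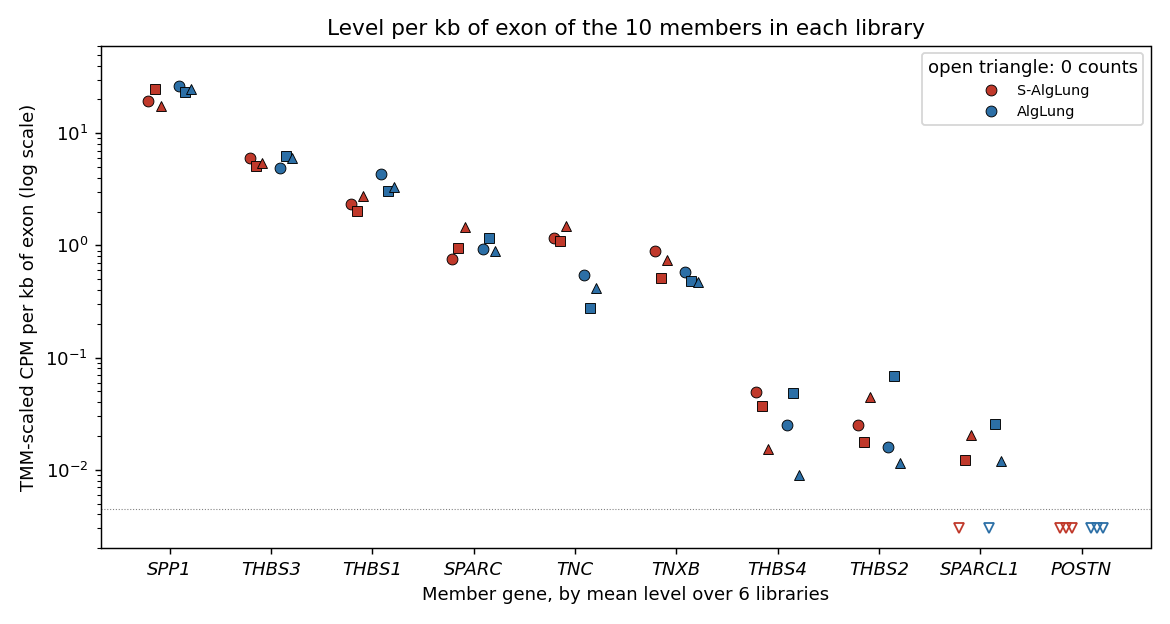
Level of each of the 10 members per kb of exon (TMM-scaled CPM per kb, log axis) in the 3 S-AlgLung libraries (left of each pair) and the 3 AlgLung libraries, ordered by the mean over 6 libraries. Open triangles below the dotted line are libraries with 0 counts; the 4 members on the right, from THBS4 to POSTN, are below the others in every library.

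**Figure D3:**
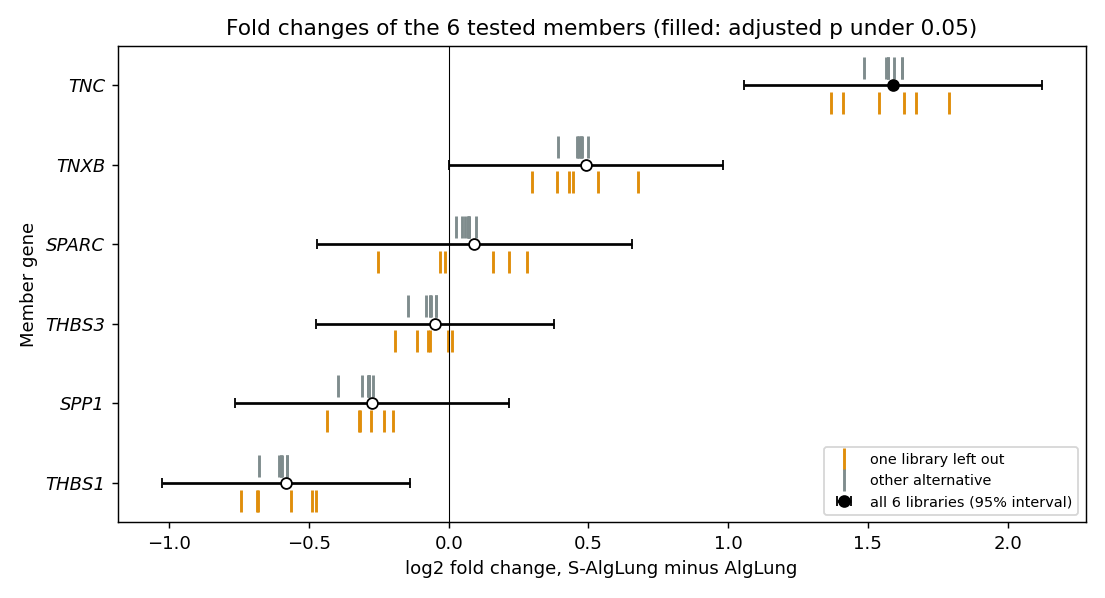
Log2 fold changes, S-AlgLung minus AlgLung, of the 6 tested members with 95% intervals; the filled point passed an adjusted p under 0.05. Ticks below each point leave out 1 library and ticks above it are the other scalings, tests and filters: TNC stays between 1.37 and 1.79, whereas those of SPARC and THBS3 lie on both sides of 0.

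By the Pearson correlation of log2 CPM over the 6 libraries, the genes most like TNC among 12817 candidates were SMIM31 (r = 0.996), CDON (0.993), ERMP1 (0.993), SLIT3-AS2 (0.993) and KCNJ2 (0.992). Over 6 libraries in 2 groups, a shared difference between the gels alone raises r. Of the 12817 candidates, 252 exceeded 0.9. SMIM31, a small membrane protein gene, had 6.42 to 8.99 CPM in S-AlgLung and 1.89 to 3.53 CPM in AlgLung, and KCNJ2, a potassium channel gene, had 6.21 to 8.99 and 2.56 to 4.02 CPM. Both were called higher (edgeR adjusted p = 0.000954 and 0.00330), whereas CDON, ERMP1 and SLIT3-AS2 were not (adjusted p of 0.0678 to 0.486). Of the other tested members, TNXB had the highest correlation with TNC (r = 0.736) and SPP1 the lowest (r = -0.649). These are descriptions over 6 libraries that share the difference between the gels.

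Genes of matricellular proteins outside the 10 changed in both directions. Of 27, 18 were tested, 3 were called higher and 2 lower in S-AlgLung, with a median log2 fold change of 0.11. The share called was 27.8%, against 5.14% of all tested genes, in a list chosen with earlier results of these data known. SPOCK1, testican 1, a proteoglycan of the SPARC family, rose to 9.35 ± 0.722 CPM in S-AlgLung, against 2.29 ± 0.588 CPM in AlgLung (SD, n = 3 each; log2 fold change 2.02, SE 0.27, edgeR adjusted p = 9.615e-06). CCN5, a CCN family protein that lacks the C-terminal module of its relatives, fell to 6.17 ± 2.36 CPM, against 22.6 ± 4.31 CPM in AlgLung (-1.87, SE 0.26, adjusted p = 1.701e-05). FBLN5, fibulin 5 of elastic fibres, rose by 0.87 (38.0 CPM in S-AlgLung and 20.7 CPM in AlgLung), and FSTL1, a secreted relative of SPARC, fell by 0.86 (8.37 and 15.2 CPM; edgeR adjusted p = 0.0117 and 0.0222). Both calls were lost without AlgLung replicate 1 (adjusted p = 0.114 and 0.0734), AlgLung replicate 3 (0.149 and 0.0976) or S-AlgLung replicate 1 (0.0667 and 0.149) and with total-count scaling (0.0649 and 0.0531). In each of these settings 1 gene of the list was called higher and 1 lower. EFEMP2, named here after its values were seen, was the third called higher, at 1.62, with overlapping groups of 2.49, 0.676 and 2.95 CPM in S-AlgLung and 0.728, 0.854 and 0.414 CPM in AlgLung; its call was lost on leaving out any AlgLung library or S-AlgLung replicate 1 or 3 (adjusted p of 0.0565 to 0.158), with total-count scaling (0.0857) and in limma-voom (0.133). TNR and TNN, of the tenascin family, and COMP, of the thrombospondin family, were among the genes too low to test.

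Of 25 receptors that bind these proteins, 20 were tested, 0 were called higher and 2 lower, with a median log2 fold change of -0.15. The share called was 10%, against 5.14% of all tested genes. ITGB8, whose integrin binds latent TGF-beta, fell to 2.72 ± 0.474 CPM in S-AlgLung, against 6.91 ± 1.55 CPM in AlgLung (SD, n = 3 each; -1.35, SE 0.27, edgeR adjusted p = 0.00170). ITGA2, of a collagen-binding integrin, fell by 0.89 (39.3 CPM in S-AlgLung and 72.9 CPM in AlgLung, adjusted p = 0.0171), but not when AlgLung replicate 1 or 3 was left out (0.123 and 0.0623), with 1 gene of the list then called lower. In the list for latent TGF-beta activation and signalling, 16 of 17 genes were tested, with 1 higher and 1 lower (12.5% called). LRRC32, which anchors latent TGF-beta at the cell surface, had 3.13, 2.83 and 9.45 CPM in S-AlgLung and 0.268, 0.405 and 0.166 CPM in AlgLung. S-AlgLung replicate 3 was the highest; the log2 fold change was 4.20 (SE 0.47, edgeR adjusted p = 9.971e-07) and 3.37 without that library. LTBP2 fell by 0.77 (adjusted p = 0.0405), a call lost on leaving out any AlgLung library or S-AlgLung replicate 2 (adjusted p of 0.0892 to 0.138), which left 0 lower, and with total-count scaling (0.0645). Without S-AlgLung replicate 3, 2 were called lower.

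Genes of matrix partners and of proteases that cut these proteins were also counted. Of 19, 14 were tested, 5 were called lower and 1 higher, with a median log2 fold change of -0.28. The share called was 42.9%, against 5.14% of all tested genes. MMP2, a gelatinase, was at 2.49, 2.07 and 1.78 CPM in S-AlgLung and 10.3, 13.5 and 11.6 CPM in AlgLung, a log2 fold change of -2.49 (edgeR adjusted p = 2.901e-07). The plasminogen activator gene PLAT was at -2.39, and the collagen chain genes COL5A1 and COL4A2 were at -2.26 and -1.31 (adjusted p of 3.333e-06 to 0.00605). The call of COL4A2 was lost without AlgLung replicate 2 (0.0616), where 3 of the list were called lower. PLAU and MMP14, named after their values were seen, were at -0.89 and 1.03; without AlgLung replicates 1, 2 or 3 or S-AlgLung replicate 1 MMP14 was not called (adjusted p of 0.0690 to 0.221; 0.145 with total-count scaling), nor PLAU without AlgLung replicate 2 or S-AlgLung replicate 1 or 2 (0.0716 to 0.0868), and C10orf55 on the other strand covers 31.0% of the PLAU exon length.

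Of 23 transcription factor genes of AP-1 and other pathways, 22 were tested, 6 were called higher and 0 lower. The share called was 27.3%, against 5.14% of all tested genes, and the median log2 fold change was 0.16. With the DESeq2 Wald test and limma-voom the number called lower was also 0. JUN, ATF3, FOS and EGR1 rose by 2.73, 3.16, 1.87 and 2.01 on the log2 scale (edgeR adjusted p of 1.811e-06 to 9.931e-05). All 4 were highest in S-AlgLung replicate 3, where TNC was highest as well: FOS had 60.8, 64.2 and 133.8 CPM in S-AlgLung and 23.3, 27.9 and 19.5 CPM in AlgLung, and EGR1 had 4.94, 4.81 and 11.0 CPM and 1.65, 1.62 and 1.90 CPM. Without that library JUN was at 2.01 and ATF3 at 2.06, both still called. ETS2 and JUNB, named after their values were seen, were at 1.34 and 0.83; JUNB was not called on leaving out any AlgLung library or S-AlgLung replicate 1 or 2 (adjusted p of 0.0617 to 0.465) or with total-count scaling (0.0625). The part of these factors in the level of TNC was not tested.

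**Figure D4:**
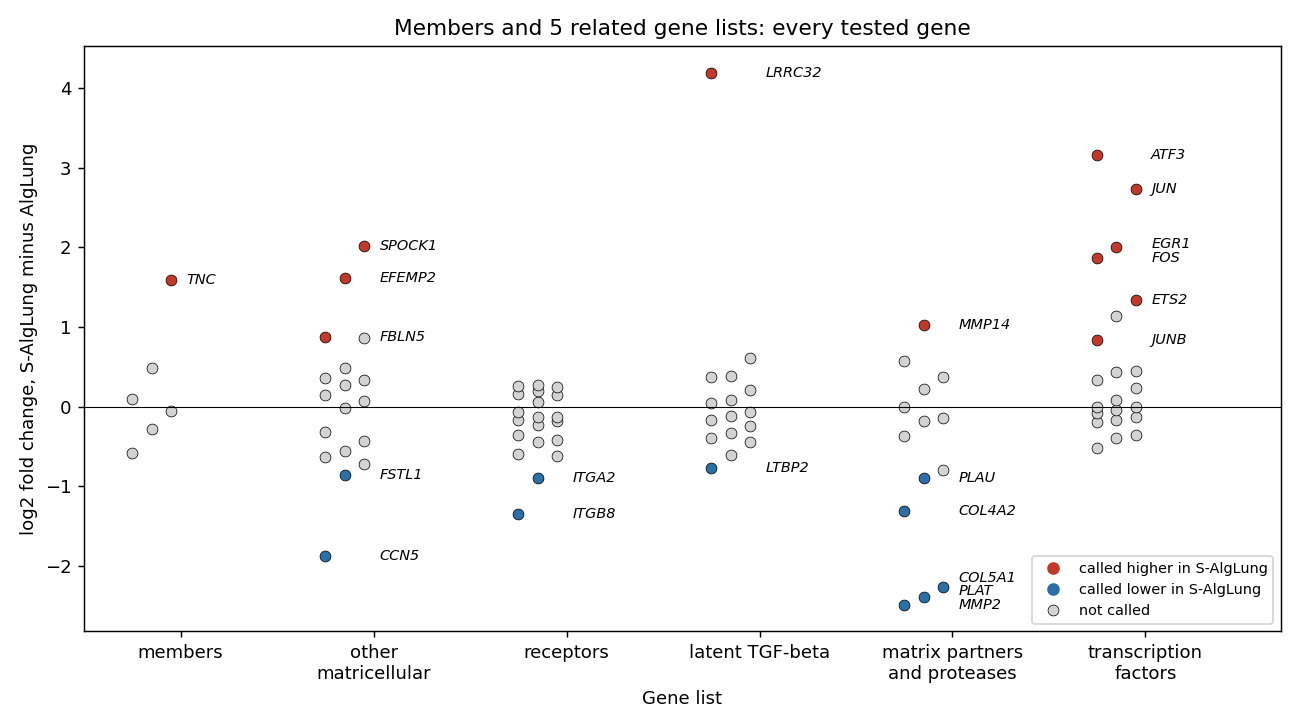
Log2 fold change, S-AlgLung minus AlgLung, of each tested gene among the members and the 5 related lists, with called genes named. TNC is the called member, at 1.59; LRRC32 is the highest point, at 4.20, and MMP2 the lowest, at -2.49.

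Markers of other cell types were checked because fibroblasts and vessels are usual sources of several members. Of 20 such markers 8 were tested, and 10 had fewer than 10 counts in the 6 libraries together. Among the 8 tested, 37.5% were called, against 5.14% of all tested genes. DES had 0 counts, DCN had 1 count in S-AlgLung and 0 in AlgLung, PDGFRB had 3 and 5, PTPRC had 5 and 0, and VWF had 2 and 3. Other markers of the list were expressed at a low level and not called: COL3A1 was at 4.19 CPM in S-AlgLung and 4.63 CPM in AlgLung, COL1A1 at 3.37 and 2.61, MYH11 at 5.11 and 6.25, and CDH5 at 0.959 and 1.43 CPM. PECAM1 was at 2.37 ± 0.109 CPM in S-AlgLung and 1.37 ± 0.398 CPM in AlgLung (SD, n = 3 each), with groups that did not overlap, and was not called (edgeR adjusted p = 0.228). The part of these markers in the members' levels was not tested. The summed level of the list was 206 to 260 CPM in S-AlgLung and 113 to 159 CPM in AlgLung, most of it from CD68 and CD14. CD68 (161 and 81.6 CPM) and CD14 (59.1 and 32.8 CPM) were called higher and ACTA2 (4.20 and 9.68 CPM) lower (edgeR adjusted p of 0.0115 to 0.0225). The CD68 and CD14 calls were lost on leaving out any AlgLung library or S-AlgLung replicate 1 (adjusted p of 0.0599 to 0.246), that of CD14 also without S-AlgLung replicate 2 (0.0961) or with total-count scaling (0.0744), and that of ACTA2 without AlgLung replicate 2 or S-AlgLung replicate 1 (0.0988 and 0.102). A gene on the same strand covers 81.6% of the CD68 exon length with 6.54 times its counts. On the other strand, ACTA2-AS1 and FAS cover 17.3% and 13.0% of the ACTA2 exon length, with 0.442 and 0.523 times its counts. ENSG00000286116, on the same strand as ACTA2, covers 13.5% with 0.269 times its counts. How many reads are shared was not tested. In the epithelial list none of 10 was called in the main edgeR fit. KRT18 and EPCAM, with the smallest p, had edgeR adjusted p of 0.455 and 0.0729, and 1 gene had an unadjusted p under 0.05. EPCAM was called higher in edgeR without S-AlgLung replicate 2 (adjusted p = 0.0321), without the low-count filter (0.0430) and with a block for replicate number. In bulk libraries, more cells making TNC and more TNC per cell cannot be told apart.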

How the data were processed

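Per the labels' protocols, RNA was extracted with TRIzol and a column kit, and a service provider built and sequenced the libraries. Per the submitters' processing notes, reads were aligned with STAR 2.7.3a to GRCh38 and counted with featureCounts; its version, its annotation and its use of strand are not stated. What was deposited is a table of raw whole-number read counts per gene. The deposited columns of AlgLung replicate 1 (a pair) differed in 0 genes and were used as 1 sample.

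Genes were kept with filterByExpr (minimum count 10), scaled with TMM and compared in edgeR 4.0.16 (R 4.3.3), using its quasi-likelihood F test, over 6 libraries without a block, S-AlgLung minus AlgLung, 2-sided. P-values were adjusted by Benjamini-Hochberg across the 18544 genes tested, with calls made below an adjusted p of 0.05. SEs were derived by dividing each absolute log2 fold change by √F. Intervals use the fit's total degrees of freedom, which add prior ones shared across genes to the residual ones. Exon lengths are the deposited ones, over all merged exons of a gene. Symbols came from a gene name table (62625 IDs matched), and promoters from RefSeq windows (13 for the 10 genes).

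Members and lists were chosen with earlier results of these data known. Named genes were all members, up to 4 called genes with the smallest p per list (2 where none was called), and the 5 genes of mean log2 CPM of at least 2 most correlated with TNC. Alternatives were other scalings, tests (DESeq2 1.42.0, limma 3.58.1), filters, the replicate block, each library left out and an adjusted p under 0.01. In a simulation of 18544 genes, the share that edgeR called was 6.99% at a 1.5-fold difference, 53.4% at 2-fold and 96.7% at 4-fold. THBS1 (1.50-fold lower) and TNXB (1.41-fold higher) were near the smallest of these sizes, where a missing call says little.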

Additional observations from a re-analysis of the deposited data

How the results depend on the processing

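TNC kept its direction and its call in all 15 alternatives, and TNXB and SPP1 kept their direction and were called in none. THBS1 kept its direction and was called only without S-AlgLung replicate 3, so the number of members called lower ran from 0 to 1 when a library was left out, and the number called higher was 1 throughout. THBS3 changed sign without AlgLung replicate 2 (0.012), and SPARC without AlgLung replicate 1 (-0.013), AlgLung replicate 3 (-0.033) and S-AlgLung replicate 3 (-0.25); with a library left out THBS3 ran from -0.194 to 0.012 and SPARC from -0.25 to 0.281, neither was called in any setting, and the cause was not tested. Over all genes, leaving out a library gave 289 to 891 higher and 244 to 662 lower genes, with both maxima without S-AlgLung replicate 3. Scaling by total counts gave 333 higher, and an adjusted p under 0.01 gave 323 higher and 217 lower. With the replicate block there were 800 higher and 500 lower genes, TNC was at 1.62 and THBS1 was not called (adjusted p = 0.0625); the labels do not tie equal numbers together, deviations of same-numbered libraries correlated at 0.072, 0.29 and 0.041, and S-AlgLung replicate 3 correlated best with AlgLung replicate 1 (0.21). With the block, 4 other matricellular genes were called higher and 4 lower, 2 latent TGF-beta genes lower, 7 transcription factor genes higher, and 1 epithelial gene, EPCAM, higher (adjusted p = 0.0331). Genes under about 1 CPM, among them 4 members, are limited by depth.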

Other observations

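Several genes overlap the thrombospondins on the other strand. THBS1-AS1, which shares 411 exon bases with THBS1, had 1.86, 1.77 and 1.95 CPM in S-AlgLung and 3.22, 2.34 and 2.61 CPM in AlgLung, a log2 fold change of -0.55 (SE 0.31, edgeR adjusted p = 0.431), near the -0.58 of THBS1. FSIP1, which shares 448 exon bases with THBS1, had 65, 67 and 118 counts in S-AlgLung and 152, 98 and 129 in AlgLung. THBS3-AS1 had 20.9, 17.5 and 18.9 CPM in S-AlgLung and 15.9, 20.4 and 20.6 CPM in AlgLung (log2 fold change 0.01, SE 0.21, adjusted p = 0.993), and like THBS3 it was lowest in AlgLung replicate 1. MTX1, which shares 146 exon bases with THBS3, had 1042, 1050 and 617 counts in S-AlgLung and 744, 842 and 840 in AlgLung. Its counts were lowest in S-AlgLung replicate 3. THBS3 was at 25.2 CPM in that library, inside its range of 22.9 to 28.8 CPM. THBS2-AS1 had 7, 7 and 15 counts in S-AlgLung and 12, 14 and 14 in AlgLung, and unlike THBS2 it did not stand out in AlgLung replicate 2. How many reads these pairs share was not tested. These genes were picked after their values were seen.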
